A study of Mus musculus with 16 samples.

Results

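The libraries named p53WT_G2 and p53WT, both from p53 wild-type muscle stem cells, were compared with each other. The comparison takes 5 of the 16 libraries of the series, chosen by title: p53WT_G2 replicates 1 and 2, and p53WT replicates 1, 2 and 3, whose titles carry no suffix. Both groups are from C57BL/6 mice of 2 to 3 months and from hind limb muscles. The cells were released from muscle with collagenase and dispase and sorted by flow cytometry for CD34 and alpha-7 integrin, with CD31, CD11b, CD45 and Sca-1 as the markers of cells to leave out. The labels do not spell out G2 and list no treatment, injury, Dmd genotype or Terc genotype for either group, although the series title names a severe Duchenne model and rhabdomyosarcoma. The p53KO_G2 (n = 2) and p53KO (n = 3) libraries repeat the contrast in p53 knockout cells with the same strain, age, muscles and sort. The p53WT_3dai libraries (n = 3) come from the tibialis anterior, and 3dai is likewise not spelled out. No label says that replicates came from separate animals, so every p measures the spread between these libraries, which may be technical. No processing date or batch is given, so a batch that follows the G2 libraries cannot be told apart from G2.

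A muscle stem cell lies under the basal lamina of its fibre, expresses the transcription factor Pax7 and, in resting muscle, is out of the cell cycle. When it is activated it takes up Myod1, divides as a myoblast and then switches on Myog, leaves the cycle and builds the sarcomere proteins of a new fibre. Genes of division are usually silent in resting cells and are switched on together through shared promoter elements, among them the CCAAT box bound by NF-Y and the CHR element of the DREAM and MuvB complexes. Genes of muscle differentiation carry E-boxes, the sites of Myod1 and Myog.

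Sequences of 4 promoters are shown because lists of division and of muscle differentiation genes were higher in G2 cells and such genes share known promoter elements. Each run holds the 250 bases before the RefSeq start on GRCm38.p6, read 5′ to 3′ on the strand of the gene. The promoters are those of the 2 genes of each list with the largest rise that hold every motif searched for that list. In the promoters of Top2a, which untangles DNA in mitosis, and Ube2c, which feeds ubiquitin to the anaphase-promoting complex, capitals mark CCAAT and the CHR letters TTTGAA on either strand.
Top2a, chr11:99024190-99024439, minus strand: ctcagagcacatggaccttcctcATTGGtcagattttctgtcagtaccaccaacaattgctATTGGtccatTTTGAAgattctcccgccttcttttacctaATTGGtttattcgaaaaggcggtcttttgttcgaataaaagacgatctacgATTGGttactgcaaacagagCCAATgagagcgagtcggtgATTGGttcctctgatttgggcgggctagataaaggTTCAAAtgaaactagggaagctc
Ube2c, chr2:164769679-164769928, plus strand: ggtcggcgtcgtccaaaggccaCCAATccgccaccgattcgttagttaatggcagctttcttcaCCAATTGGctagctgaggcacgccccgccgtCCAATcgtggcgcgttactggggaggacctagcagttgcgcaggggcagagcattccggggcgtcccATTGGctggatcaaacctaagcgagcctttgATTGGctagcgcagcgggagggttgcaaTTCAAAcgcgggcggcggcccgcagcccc
In the promoters of Tnnt2 and Tnni1, which code troponin T and troponin I of embryonic and slow muscle, capitals mark the E-box CAGCTG, which reads the same on both strands.
Tnnt2, chr1:135836084-135836333, plus strand: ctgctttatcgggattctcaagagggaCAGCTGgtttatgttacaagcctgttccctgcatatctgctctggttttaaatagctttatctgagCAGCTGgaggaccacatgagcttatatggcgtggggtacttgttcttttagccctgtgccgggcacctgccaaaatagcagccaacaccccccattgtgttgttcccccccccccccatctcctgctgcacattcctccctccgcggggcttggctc
Tnni1, chr1:135799171-135799420, plus strand: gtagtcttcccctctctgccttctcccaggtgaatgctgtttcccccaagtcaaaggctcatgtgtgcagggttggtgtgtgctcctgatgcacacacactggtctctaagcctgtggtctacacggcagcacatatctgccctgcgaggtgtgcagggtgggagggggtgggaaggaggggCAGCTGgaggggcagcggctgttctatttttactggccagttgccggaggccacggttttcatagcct
The Top2a run held 6 CCAAT and 2 CHR matches, and the Ube2c run 6 and 1, with 1 overlapping pair. Of the 49 mitosis genes that were higher in G2 cells, 42 had an entry, with 44 promoters, and 77.3% of these held CCAAT and 38.6% TTTGAA. Among all 32851 promoters of the table the shares were 33.8% and 16.0%. Of the 29 genes of the myogenic list that were higher, 19 had an entry, with 24 promoters, and 33.3% held CAGCTG against 13.0% of all promoters. In the mitosis promoters the share with CAGCTG was 9.09%. The motifs were picked with these results known, and a match describes the letters only.

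Which transcripts separated G2 cells from cells with no suffix? Values are FPKM as deposited by the authors, which are fragment numbers scaled to transcript length and library size, and differences are between group means of log2(FPKM + 1), which understates changes of genes near 0. A gene was called when limma's test gave an adjusted p under 0.05. Of 11908 genes with at least 1 FPKM in 2 or more of the 5 libraries, 3650 (30.7%) were called, 2921 higher in G2 (24.5%) and 729 lower (6.12%). A rise of 2-fold or more was called for 2364 genes (19.9%) and such a fall for 554 (4.65%). In 58.9% of genes the groups did not overlap. The median difference over all genes was 0.36. That shift decides the balance: median-of-ratios scaling moved the median to -0.01 and gave 3255 calls, 1685 higher and 1570 lower, so that 51.8% of calls were higher in place of 80.0%. Quantile normalization gave 1799 higher and 1709 lower. All 729 lower calls and 1685 of the 2921 higher calls remained under median-of-ratios scaling, and none turned. Without p53WT_G2 replicate 1 the count was 2336 and without p53WT_G2 replicate 2 it was 1880, each of which leaves 1 library in the group, assumed to vary like the others. Correlations of log2(FPKM + 1) across genes were 0.931 to 0.942 among the p53WT libraries, 0.946 between the G2 libraries and 0.805 to 0.837 between groups.

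**Figure D1:**
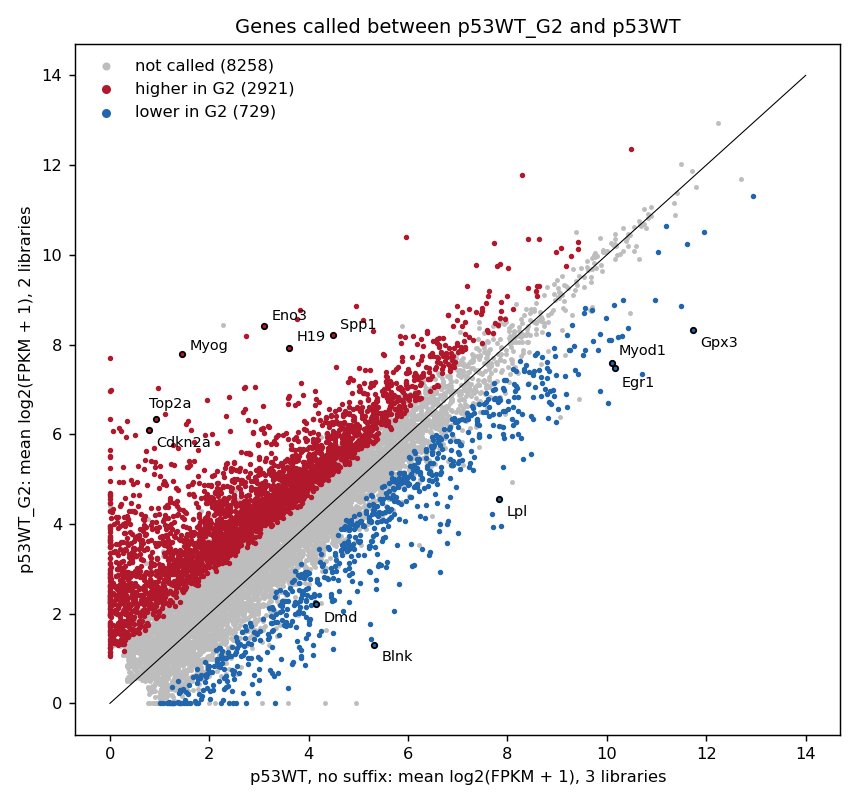
Each point is 1 of 11908 genes, with the mean log2(FPKM + 1) of the 3 p53WT libraries on the x axis and of the 2 p53WT_G2 libraries on the y axis. Called genes above the line of equality (2921) outnumber those below it (729), and genes at 0 on the x axis reach high values on the y axis.

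The 12 largest rises included genes of the sarcomere, of cell fusion and of the neuromuscular junction. The FPKM of Tnnt2 were 0, 0 and 0.0365 in p53WT, against 85.4 and 186 in G2. Its log2 difference was 6.97 (SE 0.43, adjusted p = 3.42e-08). No overlap between the groups was a condition for the 12 largest rises. Myog, the transcription factor that starts terminal differentiation, stood at 10.0, 0.583 and 0.181 in p53WT and at 162 and 304 in G2 (6.34, SE 0.92, adjusted p = 0.000123). The p53WT replicate 1 library was the highest of its group and still far below both G2 libraries. In bulk RNA, more cells of a type and more RNA per cell cannot be told apart, here and in all results that follow.

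Other genes among the 12 largest rises included Actc1, Tnni1, Tmem8c, Murc, Myh3, Cacng1, Kcnn4, Chrng and Dynap. Tmem8c, the fusion protein also called myomaker, was at 0.449, 0 and 0 FPKM against 49.3 and 98.3 (5.96, SE 0.65, adjusted p = 7.86e-06). Murc, a muscle protein of caveolae, was at 0, 1.05 and 0 against 75.8 and 80.0 (5.96, SE 0.36). Chrng, the embryonic subunit of the acetylcholine receptor of muscle, stood at 33.2 and 60.2 in G2 but had a listed value of 0 in each p53WT library. Cacng1, a subunit of a muscle calcium channel, stood at 0, 0 and 0.927 against 51.7 and 71.3 (5.63, SE 0.38), and Kcnn4, a calcium-activated potassium channel, at 0, 0 and 0.0189 against 53.7 and 44.6. Dynap, a membrane protein, was listed at 0 against 41.0 and 47.2. Such a 0 may be a failed estimate, so no log2 difference between G2 and p53WT is given for Chrng, Dynap and other genes at 0 in a whole group, and the sizes of genes at 0 in single libraries depend on the pseudocount: 101 called genes were listed at 0 in all 3 p53WT libraries and 22 in both G2 libraries.

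**Figure D2:**
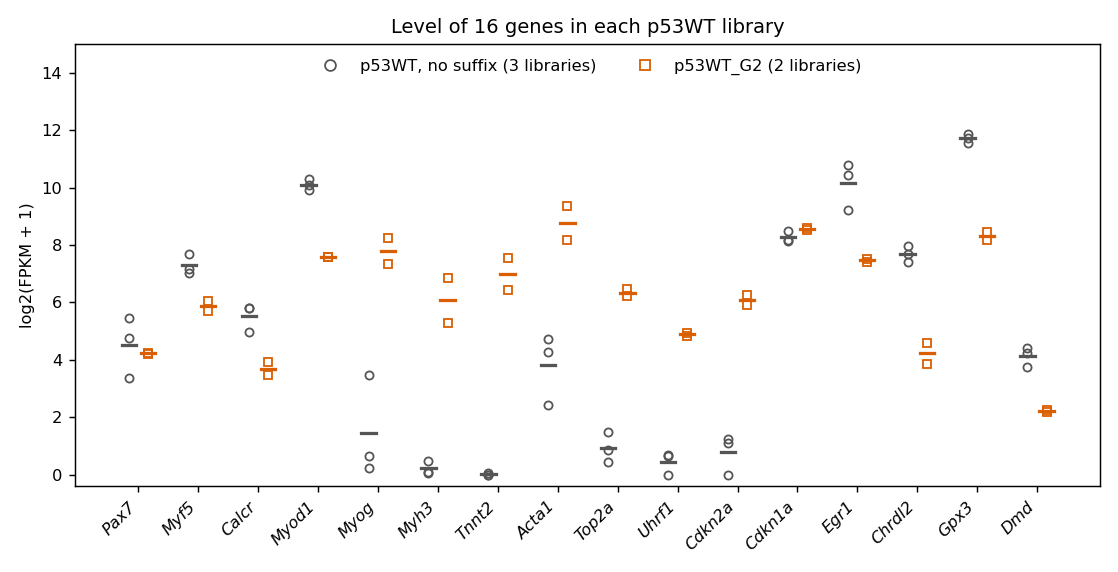
Level of 16 genes as log2(FPKM + 1), with 1 open symbol per library and a bar at the mean of each group. Myog, Myh3, Tnnt2, Acta1, Top2a, Uhrf1 and Cdkn2a lie higher in both p53WT_G2 libraries than in any p53WT library, while Myod1, Egr1, Chrdl2, Gpx3 and Dmd lie lower.

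Most myogenic factors and differentiation genes rose, while Myod1 fell. Of 40 listed genes 39 were tested, 29 were higher and 2 lower, against 24.5% and 6.12% of all genes, and the median difference was 2.79 (2.51 with 27 higher and 3 lower under median-of-ratios scaling). Actc1, the cardiac actin that is also made in embryonic muscle, was at 1.84, 1.66 and 0 FPKM against 77.4 and 216 (6.06, SE 0.63, adjusted p = 5.16e-06). Myh3, the embryonic myosin heavy chain, was at 0.0498, 0.409 and 0.0743 against 37.9 and 116 (5.85, SE 0.52). Tnni1 stood at 0, 0 and 0.119 against 33.4 and 132 (6.02, SE 0.96). In each of these genes, as in Myog and Tnnt2, p53WT_G2 replicate 2 was the higher of the G2 libraries. Myod1 ran the other way: it stood at 961, 1270 and 1083 in p53WT and at 192 and 193 in G2 (-2.51, SE 0.34, adjusted p = 6.58e-05). The other gene that fell was Musk, the receptor kinase of the neuromuscular junction, at 83.3, 76.9 and 98.1 against 40.5 and 30.6 (-1.26, SE 0.29, adjusted p = 0.00439), which lost its call without p53WT_G2 replicate 2 (adjusted p = 0.0704).

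Genes of mature fibres were in part the same ones. Of 12 markers 9 were tested, 6 were higher (66.7%, against 24.5% of all genes) and 0 lower, with a median of 2.92. Mylpf, the fast regulatory light chain, was at 15.3, 6.34 and 1.44 FPKM against 163 and 516 (5.45, SE 0.67, adjusted p = 2.57e-05). Acta1, the adult skeletal actin, was at 25.8, 18.5 and 4.35 against 289 and 660 (4.96, SE 0.62), and Myh1, an adult fast myosin, at 2.11, 0.535 and 0.421 against 10.6 and 22.5 (3.12, SE 0.49). Adult myosins were otherwise near 0 in both groups: Myh2 reached at most 0.417, Myh7 0.698 and Myh4 3.30. Ckm, muscle creatine kinase, stood at 16.3, 5.93 and 5.68 against 11.3 and 37.9, and Mb, myoglobin, at 19.2, 1.03 and 1.56 against 1.70 and 2.67; in both the groups overlapped. The summed FPKM of the 12 markers was 32.1 to 127 in p53WT and 625 to 1630 in G2. The share of this that RNA of adult fibres made up was not tested.

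Markers of muscle stem cells were called in both directions, but higher calls were no more frequent than among all genes. Of 10 genes 2 were higher, a smaller share than the 24.5% of all genes. Lower were 3, a larger share than the 6.12% of all genes. The median was -1.08 (-1.49 with 1 higher and 7 lower under median-of-ratios scaling). Calcr, the calcitonin receptor that holds stem cells at rest, fell from 54.5, 30.6 and 55.6 FPKM to 14.3 and 10.0 (-1.83, SE 0.38, adjusted p = 0.00206). Cd34, the positive marker of the sort, fell from 90.0, 59.2 and 68.5 to 27.1 and 27.5 (-1.36, SE 0.33, adjusted p = 0.00577). Myf5, a myogenic transcription factor, fell from 205, 129 and 142 to 64.8 and 51.1 (-1.42, SE 0.43, adjusted p = 0.0192), and its adjusted p was 0.147 without p53WT_G2 replicate 2, 0.0600 without p53WT_G2 replicate 1 and 0.0665 without p53WT replicate 1. Itga7, the alpha-7 integrin of the sort, rose from 87.3, 92.3 and 90.5 to 229 and 317 (1.57, SE 0.22, adjusted p = 7.23e-05). Cdh15, the cadherin of myoblasts, stood at 75.3, 35.6 and 44.0 against 99.5 and 150 (1.30, SE 0.35, adjusted p = 0.0106), which lost its call without p53WT_G2 replicate 2 (adjusted p = 0.143) and under median-of-ratios scaling (0.0800). Pax7 was at 43.1, 9.33 and 26.0 against 17.6 and 17.9, so both G2 values lay inside the p53WT range, and Vcam1, a surface protein of stem cells, at 203, 217 and 244 against 196 and 181. Neither was called.

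Division genes rose in nearly every member tested. Of 50 mitosis genes 49 were higher (98.0%, against 24.5% of all genes) and 0 lower, with a median of 3.80. The exception was Ccnf (0.91, adjusted p = 0.163). Of 51 DNA replication genes 46 were higher and 0 lower, with a median of 2.47, and of 35 DNA repair genes tested 27 were higher and 0 lower, with a median of 1.52. Under median-of-ratios scaling the counts were 49, 42 and 21 higher with medians of 3.52, 2.14 and 1.25. Top2a was at 0.822, 1.83 and 0.357 FPKM in p53WT and at 87.0 and 73.3 in G2 (5.40, SE 0.30, adjusted p = 1.40e-08). Ube2c stood at 0, 3.73 and 1.14 against 87.9 and 85.1 (5.34, SE 0.48, adjusted p = 1.46e-06). Cdca8, a subunit of the chromosomal passenger complex, was listed at 0 in the 3 p53WT libraries against 33.3 and 41.2.

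Among the replication genes, Uhrf1, which carries DNA methylation through S phase, rose from 0.631, 0 and 0.590 FPKM to 30.0 and 27.8 (4.44, SE 0.45, adjusted p = 3.76e-06). Tk1, the thymidine kinase of S phase, rose from 0, 0.541 and 0 to 16.2 and 24.6 (4.19, SE 0.31, adjusted p = 2.24e-07). Gmnn, the geminin that blocks a second round of replication, was listed at 0 in p53WT against 23.7 and 26.1. Of the repair genes, Parp1, a sensor of DNA breaks, rose from 3.93, 3.70 and 5.89 to 41.5 and 33.3 (2.81, SE 0.37, adjusted p = 5.39e-05). For Top2a, Ube2c, Uhrf1 and Gmnn the 2 G2 libraries lay close together. All 50 listed mitosis genes passed the filter on low values, 23 of them through the G2 libraries alone, and such a gene had to differ. Among all genes 509 passed through the G2 libraries alone, of which 390 were called higher, and 292 through the p53WT libraries alone, of which 84 were called lower.

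Inhibitors of the cycle and G1 regulators were higher in part. Of 24 genes 13 were higher (54.2%, against 24.5% of all genes) and 1 lower (4.17%, against 6.12%). The median was 0.88 (0.47, with 11 higher and 1 lower, under median-of-ratios scaling). Cdkn2a, whose locus codes the p16 and p19 inhibitors, which FPKM per gene do not separate, rose from 1.40, 1.15 and 0 FPKM to 76.1 and 58.7 (5.29, SE 0.51, adjusted p = 2.38e-06). Cdkn1c, the imprinted inhibitor p57 that is made in differentiating muscle, rose from 23.4, 39.6 and 20.7 to 110 and 183 (2.36, SE 0.50, adjusted p = 0.00231). Cdkn2b, a neighbour of Cdkn2a that codes p15, stood at 3.05, 0.736 and 0.640 against 14.6 and 14.0 (2.76, SE 0.76, adjusted p = 0.0125), with adjusted p = 0.0725 and 0.0773 without p53WT_G2 replicate 1 or 2. E2f8, a repressing E2F made in S phase, rose from 0.0709, 0 and 0 to 14.8 and 22.1 (4.22, SE 0.34), and Cdk6, a kinase of G1, from 2.91, 2.47 and 2.79 to 28.4 and 28.3 (2.98, SE 0.41, adjusted p = 7.24e-05). Myc was the lower gene. It stood at 351, 365 and 414 in p53WT and at 143 and 121 in G2 (-1.51, SE 0.40, adjusted p = 0.00951). It lost its call without p53WT_G2 replicate 2 (adjusted p = 0.0879).

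The genes of the tumour suppressor p53 were split. Trp53 itself stood at 39.9, 53.9 and 48.1 FPKM in p53WT and at 71.0 and 59.9 in G2 (0.46, SE 0.24, adjusted p = 0.165). Cdkn1a, the p53 target that codes the inhibitor p21, stood at 286, 359 and 283 against 369 and 388 (0.30, SE 0.32, adjusted p = 0.523), a difference that turned to -0.13 under median-of-ratios scaling. Of 51 p53 targets 50 were tested, with 21 higher (42.0%, against 24.5% of all genes) and 5 lower (10.0%, against 6.12%). The median was 0.81 (0.46, with 15 higher and 6 lower, under median-of-ratios scaling). Ak1, an adenylate kinase of muscle, rose from 0.497, 2.47 and 1.67 to 24.9 and 36.5 (3.70, SE 0.60, adjusted p = 0.000299). Psrc1, a spindle protein, was listed at 0 in p53WT against 10.2 and 16.8, and Cd80, a costimulatory ligand, at 0 against 14.1 and 9.48. Given as values and chosen after these were seen, Ccng1, a p53-induced cyclin, was at 10.2, 5.43 and 7.57 against 70.2 and 68.7, Phlda3, a restraint on Akt, at 10.5, 12.5 and 15.8 against 105 and 99.2, and Zmat3, an RNA-binding protein, at 0.968, 0.838 and 1.07 against 12.5 and 9.65.

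The targets that fell include genes that stress also induces without p53, and the part of stress in their fall was not tested. Btg2, an antiproliferative gene that is also of the immediate early kind, fell from 761, 166 and 344 FPKM to 41.4 and 51.2 (-2.91, SE 0.58, adjusted p = 0.00151). Sertad1 fell from 193, 155 and 169 to 72.6 and 51.8 (-1.47, SE 0.40, adjusted p = 0.0114), with adjusted p = 0.124 without p53WT_G2 replicate 2. Gadd45a, a DNA damage-inducible gene, stood at 709, 352 and 343 in p53WT and at 146 and 156 in G2 (-1.54, SE 0.53, adjusted p = 0.0392). It lost its call without p53WT replicate 1 (0.134) or either G2 library (0.157 and 0.145). Without either G2 library the number of lower calls in the list was 2. Of 29 apoptosis genes tested, several of them also p53 targets, 14 were higher (48.3%, against 24.5% of all genes) and 1 lower (3.45%, against 6.12%). The list median was 1.00. Bak1, a pore former of mitochondria, rose from 3.07, 5.11 and 2.89 to 32.6 and 21.2 (2.57, SE 0.27, adjusted p = 6.43e-06), and Mcl1, a survival protein, fell from 531, 381 and 427 to 186 and 202 (-1.18, SE 0.27, adjusted p = 0.00363).

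**Figure D3:**
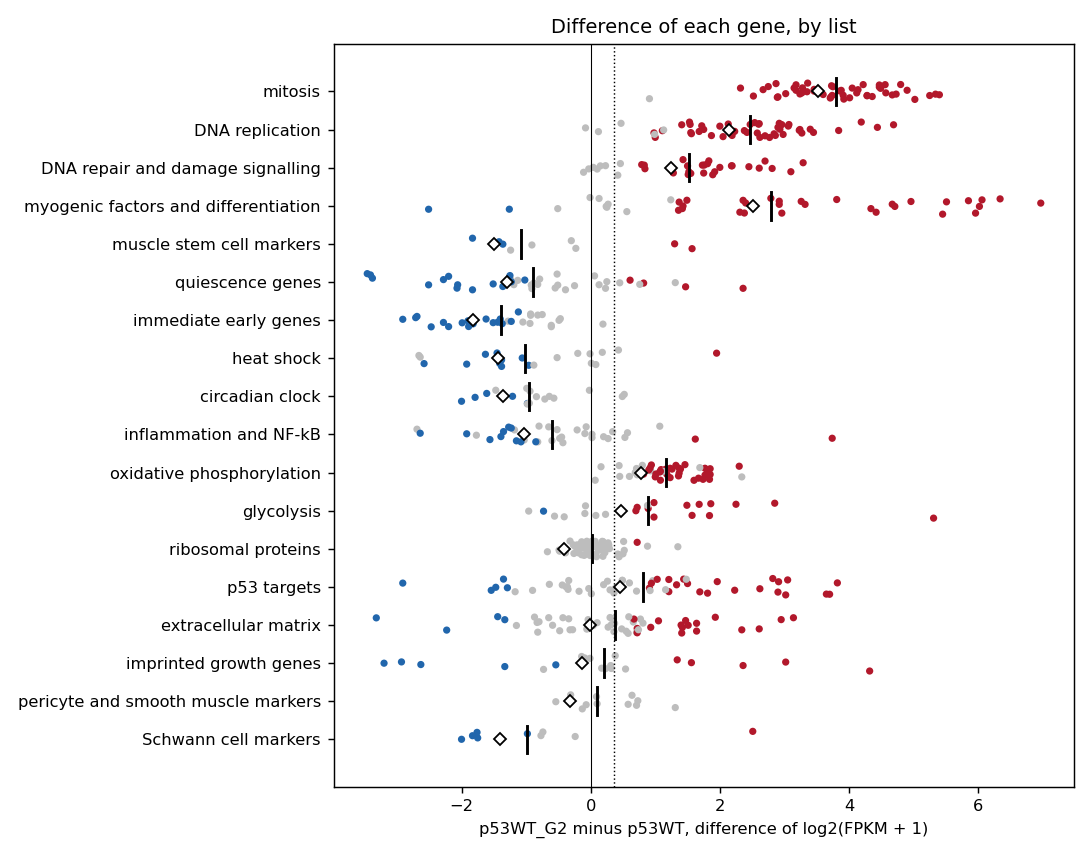
Difference of each tested gene (p53WT_G2 minus p53WT, log2(FPKM + 1)) in 18 lists; red points were called higher, blue points lower and grey points not called. Black bars are list medians, diamonds the medians under median-of-ratios scaling, and the dotted line the median of all genes (0.36). Mitosis genes lie furthest to the right (median 3.80) and immediate early genes to the left (-1.39).

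Quiescence genes and immediate early genes were lower in G2 cells in part. Of 39 quiescence genes 38 were tested, with 4 higher (10.5%, against 24.5% of all genes) and 14 lower (36.8%, against 6.12%). The median was -0.90 (-1.30 with 2 higher and 22 lower under median-of-ratios scaling). Without p53WT_G2 replicate 2 the number of lower calls was 9. Gpx3, a secreted glutathione peroxidase, fell from 3753, 3417 and 3020 FPKM to 354 and 286 (-3.41, SE 0.33, adjusted p = 3.21e-06). Fam132b, which codes erythroferrone, fell from 1643, 1601 and 1800 to 167 and 154 (-3.38, SE 0.48, adjusted p = 9.58e-05), and Chrdl2, a BMP antagonist, from 204, 171 and 249 to 23.1 and 13.5 (-3.46, SE 0.30, adjusted p = 1.05e-06). All 3 are among the 12 largest falls, for which no overlap between the groups was a condition. The 4 higher members included Cdkn1c, Foxo4 and Col5a3, with Col5a3, a chain of collagen V, which is a ligand of Calcr, at 33.1, 29.0 and 33.9 against 84.8 and 95.8 (1.47, SE 0.37, adjusted p = 0.00772, or 0.0732 without p53WT_G2 replicate 2). The number of higher members was 2 without p53WT replicate 2, p53WT replicate 3 or p53WT_G2 replicate 1 and 1 without p53WT_G2 replicate 2.

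Of 30 immediate early genes, which respond within minutes to growth factors, stress and the digestion of tissue, 0 were higher and 18 lower, with a median of -1.39 (-1.82 with 26 lower under median-of-ratios scaling). Maff, a small Maf factor, fell from 635, 376 and 534 FPKM to 84.3 and 68.7 (-2.71, SE 0.36, adjusted p = 5.62e-05), and Egr1, a zinc finger factor, from 1750, 602 and 1400 to 169 and 183 (-2.69, SE 0.63, adjusted p = 0.00446). For Egr1 the p53WT libraries differed among themselves more than the G2 libraries, with replicate 2 lowest. Without p53WT_G2 replicate 1 the number of lower calls was 10. Of 20 heat shock genes 1 was higher and 9 lower, with a median of -1.01, or 3 lower without p53WT_G2 replicate 2. Dnajb1, a co-chaperone, fell from 860, 316 and 729 to 137 and 68.2 (-2.58, SE 0.47, adjusted p = 0.000786), while Hspb8, a small heat shock protein of muscle, rose from 15.8, 30.2 and 27.2 to 84.6 and 104 (1.95, SE 0.26, adjusted p = 5.49e-05). The G2 libraries differed here: Hspb1, a small heat shock protein, was at 522 in replicate 1 and 140 in replicate 2, against 802, 537 and 1390 in p53WT. How long each digestion took is not stated in the labels, and its part in these 2 lists was not tested.

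Other genes among the 12 largest falls had varied roles. Blnk, an adaptor known from B cells, fell from 36.8, 37.0 and 43.0 FPKM to 1.39 and 1.58 (-4.0, SE 0.41, adjusted p = 4.05e-06). Lmo2, a LIM-only regulator, fell from 43.1, 33.7 and 35.4 to 0.740 and 3.24 (-3.81, SE 0.38), and Nppc, which codes C-type natriuretic peptide, from 329, 126 and 220 to 16.3 and 12.4 (-3.78, SE 0.54, adjusted p = 0.000106). Hsd11b1, which regenerates glucocorticoids, fell from 143, 77.9 and 87.9 to 6.08 and 7.09 (-3.73, SE 0.53). Ttyh1, a membrane protein, fell from 61.1, 43.8 and 51.2 to 4.18 and 2.40 (-3.64, SE 0.49), and Mgarp, a mitochondrial protein, from 38.8, 36.6 and 34.3 to 3.26 and 1.76 (-3.45, SE 0.59). Cxcl3, a neutrophil chemokine, stood at 190, 285 and 233 against 8.29 and 25.0 (-3.91, SE 0.89, adjusted p = 0.00393, or 0.0647 without p53WT_G2 replicate 1). Tac4, a tachykinin, stood at 8.64, 7.13 and 12.0 against 0 in both G2 libraries. Ctgf, a matrix protein induced by YAP, stood at 862, 1306 and 1003 against 88.1 and 121 (-3.32, SE 1.04, adjusted p = 0.0238). It lost the call without either G2 library (0.130 and 0.0948), without p53WT replicate 2 (0.0606) or without p53WT replicate 3 (0.0506).

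Energy metabolism was higher in G2 cells at the level of transcripts. Of 45 nuclear genes of oxidative phosphorylation 44 were tested, with 31 higher (70.5%, against 24.5% of all genes) and 0 lower. The median was 1.17 (0.78 with 22 higher under median-of-ratios scaling). Sdhd, a subunit of complex II, rose from 37.4, 38.2 and 27.4 FPKM to 170 and 171 (2.30, SE 0.21, adjusted p = 1.51e-06), and Ndufa4, of the respiratory chain, from 124, 150 and 72.2 to 361 and 446 (1.85, SE 0.34). The p53WT replicate 3 library was the lowest in each of these genes. Of 22 glycolysis genes tested 13 were higher and 1 lower, with a median of 0.89, but 7 and 2 under median-of-ratios scaling and 7 higher without p53WT_G2 replicate 2. The glycolysis shares were 59.1% higher and 4.55% lower, beside 24.5% and 6.12% of all genes. Eno3, the enolase of muscle, rose from 6.29, 7.99 and 8.76 to 302 and 386 (5.31, SE 0.26, adjusted p = 5.65e-09), and Tpi1, a triose isomerase, from 47.9, 58.9 and 31.9 to 194 and 243 (2.25, SE 0.28). Lpl, the lipase that frees fatty acids, fell from 264, 181 and 242 to 23.8 and 21.0 (-3.28, SE 0.26, adjusted p = 4.16e-07). Of 61 ribosomal protein genes 1 was higher and 0 lower, with a median of 0.02, which was -0.41 with 9 lower under median-of-ratios scaling and 0.17 with 8 higher under quantile normalization.

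Imprinted genes gave 5 higher and 5 lower of 20 tested in named loci, 25.0% each, beside 24.5% higher and 6.12% lower of all genes. The share of higher genes was thus near that of all genes. The list median was 0.20, beside 0.36 for all genes, and turned to -0.14 under median-of-ratios scaling. H19, a noncoding RNA beside Igf2, rose from 19.8, 6.67 and 10.2 FPKM to 170 and 345 (4.32, SE 0.47, adjusted p = 7.62e-06), and Mest from 39.1, 27.0 and 52.4 to 254 and 395 (3.02, SE 0.39, adjusted p = 3.97e-05). The noncoding RNAs of the Dlk1 and Meg3 locus fell together. Rian fell from 109, 116 and 100.3 to 9.46 and 12.6 (-3.20, SE 0.31, adjusted p = 2.94e-06), Mirg from 13.6, 28.8 and 25.4 to 2.07 and 1.86 (-2.93, SE 0.35), and Meg3 from 81.9, 111 and 107 to 7.90 and 28.2 (-2.63, SE 0.49, adjusted p = 0.000953). Dlk1, the coding gene of that locus, was at 1.73 FPKM or less in all 5 libraries.

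Dystrophin and its complex did not move together. Dmd, the dystrophin gene, fell from 20.5, 12.5 and 18.1 FPKM to 3.75 and 3.52 (-1.93, SE 0.32, adjusted p = 0.000354), with no overlap between groups. It was the only lower gene of 22 tested, of which 8 were higher, although 6 were higher and 3 lower under median-of-ratios scaling. In p53WT_3dai Dmd stood at 0.714, 0.781 and 0.722, below both G2 libraries. Its G2 difference in p53KO was -1.86 (SE 0.32, adjusted p = 0.000487). Sntb1, a syntrophin, stood at 4.02, 5.89 and 2.14 against 14.0 and 25.7 (2.07, SE 0.47, adjusted p = 0.00380), with adjusted p = 0.0751 without p53WT_G2 replicate 2. The number of higher genes was 5 without p53WT replicate 1 and 3 without p53WT_G2 replicate 2. Terc, the telomerase RNA, was listed at 0 in all 16 libraries of the series, so its value separates no groups. Of 16 shelterin and telomerase genes tested 3 were higher (18.8%, below the 24.5% of all genes) and 0 lower, with 1 higher and 1 lower under median-of-ratios scaling, and 0 and 1 higher without p53WT_G2 replicate 1 or 2.

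Matrix genes were called at shares near those of all genes. Of 53 matrix genes 17 were higher (32.1%, against 24.5% of all genes) and 4 lower (7.55%, against 6.12%), with a median of 0.37, beside 0.36 for all genes, that was -0.01 with 10 higher and 8 lower under median-of-ratios scaling, and 8 were higher without p53WT_G2 replicate 2. Col8a1, a short-chain collagen, rose from 4.35, 6.86 and 8.61 FPKM to 65.9 and 62.5 (3.14, SE 0.28, adjusted p = 1.25e-06), and Tnc, tenascin C, from 20.6, 29.1 and 18.8 to 201 and 161 (2.95, SE 0.55, adjusted p = 0.000973). Loxl2, which crosslinks collagen, fell from 47.1, 53.8 and 60.8 to 10.1 and 11.2 (-2.23, SE 0.49, adjusted p = 0.00290). Spp1, osteopontin, rose from 20.2, 20.8 and 23 to 276 and 318 (3.74, SE 0.30, adjusted p = 4.58e-07). Of 35 tested genes of inflammation 2 were higher and 10 lower, with a median of -0.60, and the number of lower calls was 1 without p53WT_G2 replicate 2, 4 without p53WT_G2 replicate 1 and 6 without p53WT replicate 3. In the inflammation list 5.71% were higher and 28.6% lower, beside 24.5% and 6.12% of all genes. Bmp4, a ligand of stem cell renewal, fell from 93.5, 45.2 and 65.9 to 11.0 and 10.4 (-2.51, SE 0.30, adjusted p = 2.15e-05). Id3, a BMP-induced inhibitor of myogenic factors, fell from 1745, 864 and 787 to 235 and 314 (-1.96, SE 0.44, adjusted p = 0.00380).

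Ligands and receptors were called in both directions. Of 41 growth factors, receptors and Sprouty genes tested 16 were higher (39.0%) and 5 lower, with a median of 0.25 (-0.01 with 11 higher and 10 lower under median-of-ratios scaling), and 2 or 3 were lower without p53WT_G2 replicate 1 or 2. Of 19 genes of the Notch pathway tested 4 were higher, or 21.1% against 24.5% of all genes, and 1 was lower (2 higher and 8 lower under median-of-ratios scaling). Sdc4, a heparan sulfate proteoglycan of stem cells, fell from 1750, 1245 and 1196 FPKM to 320 and 341 (-2.06, SE 0.23, adjusted p = 1.05e-05), and Fgfr1, the main FGF receptor of these cells, from 391, 488 and 528 to 127 and 121 (-1.90, SE 0.34, adjusted p = 0.000638). Jag2, a Notch ligand, rose from 0.310, 0.205 and 0.490 to 5.96 and 6.84 (2.47, SE 0.32, adjusted p = 4.22e-05), and Dll1, another, from 3.32, 3.98 and 3.83 to 18.6 and 25.7 (2.28, SE 0.39, adjusted p = 0.000428). Hey1, a target of Notch, stood at 44.2, 45.2 and 46.4 in p53WT and at 24.0 and 14.0 in G2 (-1.25, SE 0.45, adjusted p = 0.0471). It lost its call whichever of the 5 libraries was left out (0.0633 to 0.328). Igfbp3, which binds insulin-like growth factors, rose from 7.91, 3.95 and 2.85 to 37.9 and 35.3 (2.76, SE 0.38), and Vegfa fell from 89.7, 106 and 91.1 to 23.5 and 19.1 (-2.12, SE 0.32, adjusted p = 0.000174). Of 17 clock genes tested 0 were higher and 5 lower, with a median of -0.95, or 3 lower without p53WT_G2 replicate 2. The 5 lower clock genes were 29.4% of those tested, beside 6.12% of all genes. Rora, a nuclear receptor of the clock, fell from 26.8, 17.3 and 24.2 to 6.85 and 6.53 (-1.61, SE 0.31, adjusted p = 0.00117).

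Markers of other cells of muscle were checked beside these results. Endothelial markers summed to 24.9 to 39.3 FPKM in p53WT and 22 to 28.9 in G2, and macrophage markers to 9.95 to 27.4 and 20.7 to 20.8, with 4 of 10 at 0 in all 5 libraries. Tek, the angiopoietin receptor, was at 12.4 to 18 against 3.27 and 2.39. Ptprc, the common leukocyte antigen, was listed at 0 in all 5, all 4 neutrophil markers in the files were at 0, and Pecam1 reached at most 2.09. Itgam, which codes CD11b, reached at most 0.286. Ly6a, which codes Sca-1, was at 0, 2.79 and 0 in p53WT against 3.58 and 2.08 in G2 (1.27, SE 0.80, adjusted p = 0.246), and the groups overlapped. Schwann cell markers summed to 636 to 696 in p53WT and 246 to 255 in G2. Of 9 tested 5 were lower (55.6%, against 6.12% of all genes) and 1 higher (11.1%, against 24.5%). The 5 lower calls were 1 to 3 with any 1 library left out. Markers of fibro-adipogenic progenitors summed to 489 to 576 and 231 to 237, most of it Dcn, decorin, at 395, 479 and 469 against 176 and 178. Tenocyte markers summed to 256 to 483 and 672 to 714, but 2 of 10 were called higher, Tnc and Scx, a tendon transcription factor, and the list median was -0.02 (-0.43 with 2 lower under median-of-ratios scaling). Pericyte markers overlapped, at 568 to 1690 and 912 to 1140. Red blood cell markers summed to 19 to 35.8 in p53WT and at most 5.94 in G2. The part of other cells in the falls of Dcn and the rise of Tnc was not tested.

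Did the same contrast in p53 knockout cells give the same genes? The p53KO and p53KO_G2 libraries share no sample with the p53WT comparison. Both contrasts were however fitted in the same model, so each gene has the same variance estimate in both tests. The genes tested were also chosen on the p53WT libraries of either group alone. The overlap of calls is therefore not a fully independent repeat. Trp53 itself stood at 6.34, 12.2 and 7.17 FPKM in p53KO and at 16.7 and 19.8 in p53KO_G2, below every p53WT library of either group but not at 0. In p53KO 3796 genes were called (31.9%), 2885 higher (24.2%) and 911 lower (7.65%), or 1566 and 1645 under median-of-ratios scaling. Called in both genotypes with the same direction were 2699 genes, which is 73.9% of the p53WT calls and 71.1% of the p53KO calls, and 0 were called in opposite directions. Of the 3650 p53WT calls 97.8% had the same sign in p53KO. By list, 48 of the 49 higher mitosis genes, 46 of 46 DNA replication genes, 27 of 29 myogenic genes, 30 of 31 oxidative phosphorylation genes and 17 of 18 lower immediate early genes were also called in p53KO. Of the 21 p53 targets that were higher in p53WT cells 13 were called in p53KO, and the list median was 0.21 there against 0.81.

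**Figure D4:**
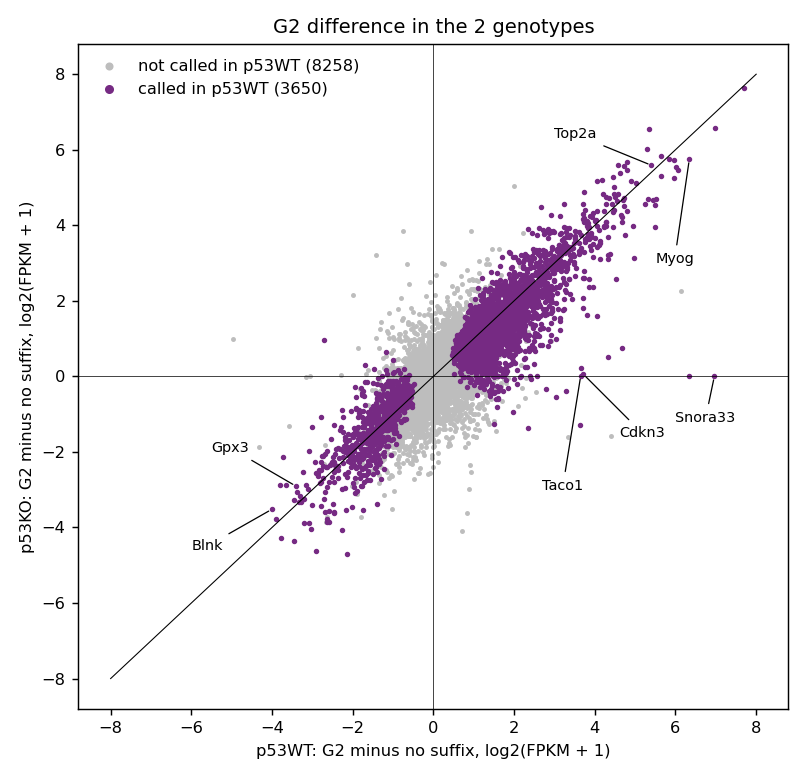
Each point is 1 of 11908 genes, with the G2 difference in p53WT on the x axis and in p53KO on the y axis, both on the log2(FPKM + 1) scale. The genes called in both genotypes (2699) lie in the lower left and upper right, and Cdkn3, Taco1 and Snora33 lie near 0 on the y axis only.

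Testing the difference of the G2 effects between genotypes gave 3 of 11908 genes (0.0252%), 0 with a larger and 3 with a smaller effect in p53KO, with 514 at an unadjusted p under 0.05. The filter on low values read the p53WT and p53WT_G2 libraries alone. A gene that did not reach 1 FPKM in at least 2 of these 5 libraries could not enter, even if it rose in p53KO_G2. With no filter 10 genes were called, 4 with a larger and 6 with a smaller value in p53KO. No p53 target was called in that test. For Ccng1 the G2 values were 16.9 and 11.8 in p53KO_G2, against 4.93, 9.21 and 6.19 in p53KO, and the difference of effects was -2.05 (adjusted p = 0.241). For Cdkn2a the p53KO values rose from 1.40, 0 and 0 FPKM to 96.4 and 77.3, and the difference of effects was 0.73 (adjusted p = 1). A difference that misses the threshold with 2 G2 libraries in each genotype does not show that the effects are alike.

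Where did G2 cells stand beside 3dai cells? Both comparisons with cells of no suffix use the same p53WT libraries, and the 3dai cells come from another muscle, so the levels are set side by side. Against p53WT_3dai 2707 genes were called (22.7%), 1842 higher in G2 (15.5%) and 865 lower (7.26%), and in all 1376 and 1286 without p53WT_G2 replicate 1 or 2. The split was 1364 higher and 1132 lower under quantile normalization, and 2126 and 503 with small RNA and mitochondrial names left out. Division genes were lower in G2 than in 3dai cells: 33 of 50 mitosis genes and 39 of 51 DNA replication genes fell and 0 rose. Top2a stood at 172, 176 and 125 FPKM in 3dai, above the 87.0 and 73.3 of G2 and the 1.83 or less of cells with no suffix. Differentiation genes were higher in G2, with 27 of 39 higher and 0 lower. Myog stood at 33.0, 5.78 and 44.4 in 3dai, below both G2 libraries, with the lowest value inside the p53WT range. Gpx3 stood at 30.4, 28.6 and 28.2, below both, and 23 of 38 quiescence genes were higher in G2 than in 3dai with 1 lower. Cdkn2a stood at 7.27, 9.93 and 25.9, again between the groups. Matrix genes (43 of 53 higher), interferon response genes (31 of 35) and all 11 pericyte markers were higher in G2 than in 3dai, with 0 lower in each list.

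**Figure D5:**
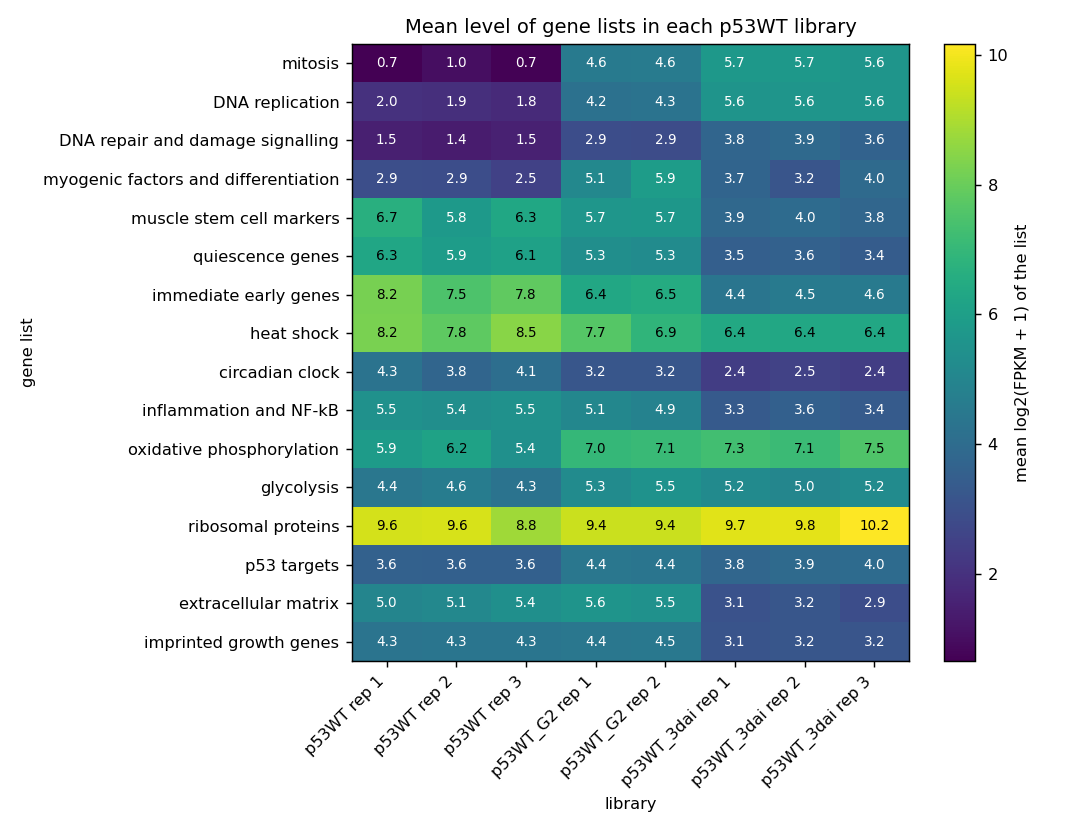
Mean log2(FPKM + 1) of all listed genes in the files, for 16 lists in the 8 p53WT libraries, printed in each cell. For mitosis the G2 libraries lie between no suffix and 3dai, and for myogenic genes they are the highest of the 3 groups.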

How the data were processed

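The values are FPKM deposited by the authors, with 1 value per gene symbol (24341) and library. Per the submitters' processing notes the tools were STAR, Cufflinks and Cuffdiff and the genome mm10, without versions. Libraries were made, per the labels, with the NEBNext Ultra II Directional kit. Depth is unknown, and the 5 libraries had FPKM sums of 423303 to 511051 with 10675 to 11574 genes at 1 FPKM or more.

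A gene entered the fit on log2(FPKM + 1) if 2 of the 5 libraries reached 1 FPKM (11908 genes, with 12433 left out), and all 16 libraries were fitted by group in 1 model by limma 3.58.1 under R 4.3.3, with a trend in the variance and 10 residual degrees of freedom. P-values were adjusted by Benjamini-Hochberg over these genes, and calls were made at 0.05. Of the tested genes, 51 had a quantification status other than OK in at least 1 of the 5 libraries.

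Members and lists were chosen with earlier results of these data known. Genes named are Trp53, Cdkn1a, Dmd, Terc and the sort markers; the 12 largest called rises and falls whose higher group averaged 5 FPKM or more and whose groups did not overlap; up to 3 rises and 3 falls of each list; and the genotype differences. The rule skips small RNAs and predicted loci. Pax7, Vcam1, Ccnf, Dlk1, the adult myosins, Ckm, Mb, Ccng1, Phlda3, Zmat3 and Snora33 were chosen after their values were seen. A few genes picked in these ways are left out here.

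In simulated data with 200 of 11908 genes changed, drawn from genes at 5 FPKM or more, 17.1% were recovered at 2-fold and 79.2% at 4-fold, with 6.56% and 4.81% of the calls wrong. Equal numbers were raised and lowered, without a shift of all genes. In the real comparison 30.7% of genes were called around a median of 0.36, so these shares may not hold there. Alternatives were another pseudocount, filters, scalings, array weights, fits of only the groups compared, a replicate block and leaving out each library; FAIL and LOWDATA values set to missing, and scaling over the 5 libraries alone, were chosen after the data were seen. Promoter sequences are RefSeq's on GRCm38.p6.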

Additional observations from a re-analysis of the deposited data

Results flagged for a closer look

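For 3 genes the test of the difference between genotypes passed, each with a smaller value of the G2 difference in p53KO. All 3 were listed at 0 in p53WT and passed the filter through the p53WT_G2 libraries alone, which favours that direction, so the direction is a description. Cdkn3, a phosphatase of cyclin-dependent kinases, had a listed value of 0 in the 6 libraries of p53WT and p53KO, 9.97 and 14.7 FPKM in p53WT_G2 and 0 and 0.0844 in p53KO_G2 (difference of effects -3.66, limma adjusted p = 0.0153). In the 3dai libraries Cdkn3 stood at 9.05, 16.6 and 9.37 in p53WT and at 15.5, 33.4 and 19.1 in p53KO. The small nucleolar RNA Snora33 was listed at 0 in every library of p53WT, p53KO and p53KO_G2 and at 91.6 and 167 in p53WT_G2 (-6.96, adjusted p = 5.05e-07). Taco1, a translational activator of mitochondria, was listed at 0 in the 3 p53WT libraries, at 2.54, 1.32 and 2.76 in p53KO, at 11.2 and 11.9 in p53WT_G2 and at 2.87 and 1.61 in p53KO_G2 (-3.63, adjusted p = 0.0410). Each rests on values listed at 0, which may be failed estimates, and the sizes depend on the pseudocount. Beside them, 1 to 10 genes passed this test under the alternatives.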

How the results depend on the processing

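Calls for G2 against no suffix in p53WT stayed within 1.5 times of 3650 under every alternative with all libraries kept, from 2857 with a mean of at least 5 FPKM to 4576 with array weights; with 1 library left out they ranged from 1880 to 3278. In p53KO the 3796 calls became 2358 with only the groups compared and 2104 to 3715 with a library left out. The 3 genotype differences became 5 with a pseudocount of 0.1, 10 with no filter, 1 with a mean of at least 5 FPKM, 1 with small RNA and mitochondrial names left out, 5 with only the groups compared, and 1 to 3 with a library left out. The 2707 calls against 3dai became 4213 with array weights and 1286 to 2212 with a library left out. The cause was not tested, except that fewer libraries or genes enter some fits. With the replicate number as a block the counts were 3460, 3525, 2 and 2407; same-numbered p53WT and G2 libraries deviated with correlations of -0.008 and 0.078, and the labels do not say that numbers pair them.

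No call for G2 against no suffix in p53WT changed direction under any alternative. Among uncalled genes Cdkn1a turned from 0.30 to -0.13 under median-of-ratios scaling, or -0.05 with that scaling over the 5 libraries alone, and Pecam1 from 0.29 to -0.23 under quantile normalization and to between -0.30 and 0.89 with a library left out. Of the 161 named genes that were called, 100 kept the call under every alternative and 61 lost it under at least 1. With 2 G2 libraries and unknown depth, changes near 2-fold and genes near 1 FPKM are those least often detected.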

Other observations

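Other lists changed in part. Of 29 genes of cholesterol synthesis and uptake 3 were higher (10.3%) and 6 lower (20.7%) in G2 cells, beside 24.5% and 6.12% of all genes. The median was -0.20 (-0.63 with 2 higher and 12 lower under median-of-ratios scaling). With any 1 library left out the median lay between -0.41 and -0.04. Sc5d, a desaturase of the pathway, fell from 26.7, 24.0 and 28.1 FPKM to 7.89 and 11.4 (-1.37, SE 0.25, adjusted p = 0.000763). Of 31 antioxidant genes 6 were higher (19.4%, below the 24.5% of all genes) and 5 lower (16.1%, against 6.12%), or 5 and 7 under median-of-ratios scaling. The median was -0.11, and it lay between -0.24 and -0.03 with any 1 library left out. Gpx8, a peroxidase of the endoplasmic reticulum, rose from 23.8, 36 and 27.5 to 159 and 137 (2.33, SE 0.38, adjusted p = 0.000328), Gpx1, the main cellular glutathione peroxidase, from 22, 58.3 and 37.4 to 158 and 188 (2.21, SE 0.32), and Prdx2, a peroxiredoxin, from 66.7, 101 and 46.2 to 297 and 282 (2.08, SE 0.27). Gstm1, a glutathione transferase, fell from 129, 149 and 170 to 32.8 and 42.8 (-1.96, SE 0.27, adjusted p = 7.72e-05).

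Of 37 genes of ribosome biogenesis and translation 2 were higher and 4 lower, or 0 and 14 under median-of-ratios scaling, and the lower count was 1 or 2 without any 1 library except p53WT replicate 3. Nop58, a box C/D snoRNP protein, fell from 602, 680 and 562 FPKM to 242 and 228 (-1.38, SE 0.19, adjusted p = 7.56e-05). Of 23 genes of integrins and laminins tested 4 were higher (17.4%) and 2 lower (8.70%), beside 24.5% and 6.12% of all genes. Lamc3 fell from 7.30, 4.37 and 9.93 to 0.165 and 0.182 (-2.75, SE 0.34, adjusted p = 2.64e-05). Lama3 fell from 8.83, 4.84 and 11.7 to 1.28 and 1.18 (-2.01, SE 0.38, adjusted p = 0.000995), while Lamb1 rose from 8.69, 11.9 and 18 to 43.3 and 39.4 (1.66, SE 0.33, adjusted p = 0.00152). Of 35 interferon response and MHC class I genes 0 were higher and 4 lower, with a median of 0.07 that turned to -0.29 under median-of-ratios scaling; 0 were lower without p53WT_G2 replicate 2 and 2 without p53WT replicate 1. The 4 lower interferon response genes were 11.4% of those tested, beside 6.12% of all genes. Hoxa9 stood at 1.53, 0.829 and 1.85 against 11.1 and 7.95 (2.14, SE 0.42, adjusted p = 0.00136). Of 21 Hox list genes tested 5 were higher and 0 lower, a share of 23.8% beside the 24.5% of all genes, with 1 higher under median-of-ratios scaling and 1 to 4 with a library left out.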
